A study of Arabidopsis thaliana with 48 samples.

Results

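The libraries described here read the mRNA on ribosomes of the root epidermis of Arabidopsis thaliana after 8 h of brassinolide, set against the same line before treatment. They are the pGL2 libraries of 0 h and 8 h in the Col-0 background, 4 of the 48 libraries of the series, chosen by their labels. In the series, FLAG-tagged ribosomes were pulled down from roots and the mRNA they carried was sequenced (TRAP), in 8 lines at 3 times with 2 biological repetitions each. The plants were 6 days old and grew in continuous light, and 100 nM brassinolide (BL), the most active brassinosteroid, was given for 0, 3 or 8 h.

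In the pGL2 line the promoter of GLABRA2 (GL2) drives the tag, and the label calls its tissue epidermis; GL2 is known from the non-hair cell files of the root epidermis. The other libraries used for comparison came from Col-0 plants with the tag under pBRN2 (labelled as lateral root cap and columella), pSCR (endodermis), pSHR (stele) or 35S (whole root). A further line, pGL2(pGL2BRI1), has the tag under pGL2 in bri1-116 plants, which lack a working brassinosteroid receptor BRI1, with BRI1 restored in the epidermis. Each comparison uses 2 libraries per line and time. No untreated library of 3 h or 8 h is analysed here, so the effects of BL and of elapsed time and handling cannot be told apart.

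Summed over lists, the marker levels went with the labelled tissue, but single members did not. At 0 h GL2 stood at 114 and 57.9 CPM (read counts scaled to the size of each library) in the pGL2 libraries, against 3.21 and 3.26 CPM in the 35S libraries. The summed level of 14 non-hair markers was 248 to 319 CPM at 0 h, against 102 to 103 CPM in 35S, and 1 of the 14 was under 1 CPM in both 0 h libraries. Among the 14, WER was higher in pBRN2 (105 and 80.5 CPM) than in pGL2 (59.8 and 55.4 CPM). SCM was higher in pSCR (17.2 and 6.96 CPM) than in pGL2 (1.51 and 1.15 CPM). Most of the others were lower in both lines than in pGL2. The 12 root hair markers summed to 115 to 144 CPM, against 193 to 216 CPM in 35S. A large part of that sum was RHD2, at 54.5 and 60.2 CPM against 16.6 and 17.6 CPM in 35S. Most of the other hair markers were lower in pGL2 than in 35S. Whether hair cells added to these libraries was not tested. The 5 root cap markers summed to 42.5 to 46.1 CPM against 3154 to 3664 CPM in pBRN2, the 11 endodermis markers to 82.8 to 136 CPM against 8380 to 8620 CPM in pSCR, and the 11 stele markers to 76.9 to 89.5 CPM against 1729 to 1846 CPM in pSHR. Both cortex markers were under 1 CPM.

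Some of these levels moved with time. At 8 h the non-hair markers summed to 504 to 543 CPM, the root hair markers to 152 to 154 CPM, the endodermis markers to 142 to 182 CPM, the stele markers to 87.8 to 95.7 CPM and the root cap markers to 38.0 to 40.5 CPM. Their part in the results below was not tested. In such bulk libraries a change in the number of cells of a type and a change in RNA per cell cannot be told apart.

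Total counts ran from 27155311 to 33209228 in the 6 pGL2 libraries. The 8 h replicates lay farther apart than the 0 h replicates: the chi-square statistic per degree of freedom over genes was 74.4 at 8 h and 28.3 at 0 h. In pGL2(pGL2BRI1), the replicate 2 libraries stood apart from replicate 1, with summed endodermis markers of 2284 CPM at 0 h and 2537 CPM at 8 h in replicate 2, against 133 and 189 CPM in replicate 1. For named genes and for the shares of genes, values of that line are given with and without these libraries.

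Brassinosteroids are steroid hormones that bind the receptor kinase BRI1 at the cell surface. The signal inactivates the kinase BIN2 and so lets the transcription factors BZR1 and BES1 act in the nucleus, where they repress the genes of hormone synthesis and many others and induce genes of cell expansion. In the root the hormone sets meristem size and cell elongation, and it interacts with auxin, the hormone that patterns the root tip.

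At 8 h, 387 genes were higher (1.84% of the 20995 tested) and 426 were lower (2.03%) than at 0 h, 813 in all (3.87%), by the quasi-likelihood test of edgeR at a Benjamini-Hochberg adjusted p under 0.05. In what follows "rose" and "fell" are used of these genes only. At 3 h, 104 genes (0.495%) were higher and 102 (0.486%) lower than at 0 h (0.981% in all), and 95 (0.452%) were higher and 40 (0.191%) lower at 8 h than at 3 h (0.643% in all). Of the genes called at 8 h against 0 h, 288 rose and 256 fell by 2-fold or more, and 104 rose and 62 fell by 4-fold or more. The libraries of the groups did not overlap for 382 of the genes that rose and for all 426 that fell, where 48.5% of all genes tested did not overlap. DESeq2 called 703 higher and 513 lower, so that 57.8% of its calls were higher against 47.6% here, and RLE scaling gave 460 higher and 340 lower (57.5% higher). With TMM scaling the median log2 change over all genes tested was -0.03. Fitted on the libraries of the compared groups only, edgeR called 352 higher and 281 lower. Those calls held 223 of the 387 genes that rose and 182 of the 426 that fell.

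The replicates did not carry the response equally. At 8 h, replicate 2 lay farther from the 0 h mean than replicate 1 for 76.0% of the genes that rose and 78.2% of those that fell. Without 8 h replicate 2 the counts were 84 higher and 47 lower, without 8 h replicate 1 they were 520 and 540, without 0 h replicate 1 they were 162 and 247, and without 0 h replicate 2 they were 46 and 61. In these fits the library left alone in its group is assumed to vary like the other groups. Few of the genes that rose or fell kept their call across all 4 of them. For the other genes named below, the libraries whose omission ended the call are given, in most cases with the adjusted p reached. A note on 51-base reads marks 0 h replicate 2 and 8 h replicate 1 but not the other 2 libraries. The genes that rose had a median log2 difference of 1.03 within the marked pair and 1.28 within the unmarked pair, and those that fell -0.95 and -1.14; because the calls chose these genes, their direction within the pairs is no separate evidence.

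**Figure D1:**
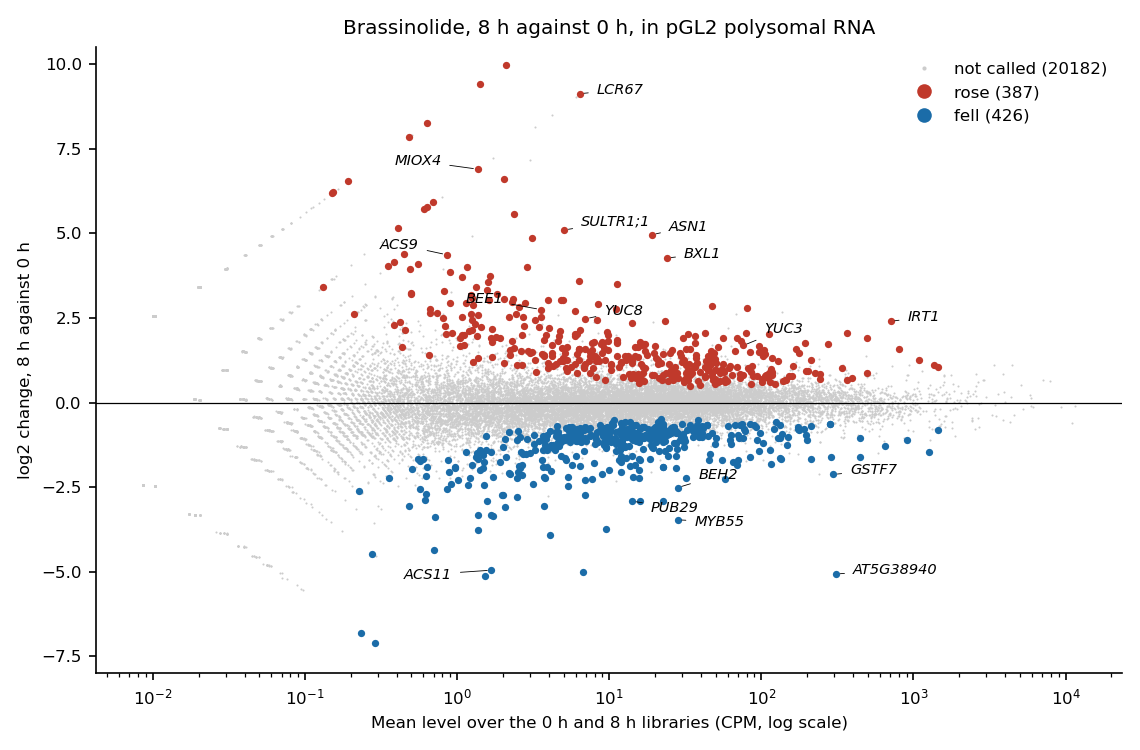
Log2 change at 8 h against 0 h in the pGL2 line (vertical axis) by mean level in the 4 libraries (horizontal axis, CPM, log scale). Each point is 1 of the 20995 genes tested; the 387 that rose and the 426 that fell at an edgeR adjusted p under 0.05 are coloured.

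Transcription factors of the brassinosteroid pathway moved in both directions. Of 15 tested, 2 rose and 2 fell, against 1.84% and 2.03% of all genes. BEH2 (AT4G36780), a homologue of BZR1 and BES1, was at 52.9 and 43.2 CPM at 0 h, 7.34 and 5.79 CPM at 3 h, and 8.54 and 8.29 CPM at 8 h. All treated libraries were below both 0 h libraries, and the log2 change at 8 h was -2.51 (SE 0.332, edgeR adjusted p = 2.68e-05). IBH1 (AT2G43060), an atypical helix-loop-helix protein known to restrain cell elongation, fell from 18.3 and 16.8 CPM to 6.12 and 4.7 CPM at 8 h (log2 change -1.70). Its call was lost without 0 h replicate 2 (edgeR adjusted p = 0.0608) or 8 h replicate 2 (edgeR adjusted p = 0.197).

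BEE1 (AT1G18400), a helix-loop-helix factor known as an early brassinosteroid-induced gene, moved the other way. It stood at 0.928 and 0.902 CPM at 0 h, 3.11 and 3.27 CPM at 3 h and 7.43 and 4.9 CPM at 8 h, so its level was highest at the last time (log2 change 2.75, SE 0.361, edgeR adjusted p = 2.57e-05). AIF1, another atypical helix-loop-helix protein, rose from 4.57 and 3.61 CPM to 10.3 and 16.8 CPM, a call lost without 0 h replicate 1 (edgeR adjusted p = 0.111), 0 h replicate 2 (edgeR adjusted p = 0.339) or 8 h replicate 2 (edgeR adjusted p = 0.452).

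Genes of hormone synthesis were mostly lower. The median log2 change of the 10 tested was -0.94, 1 of the 10 was above 0, and 1 fell. That was DET2 (AT2G38050), the steroid 5-alpha-reductase, from 69.5 and 65.4 CPM to 37.2 and 28.1 CPM (log2 change -1.05, edgeR adjusted p = 0.0043), a call lost without 8 h replicate 2 (edgeR adjusted p = 0.169). DWF4 (AT3G50660), the C-22 hydroxylase, was at 23.8 and 26.3 CPM at 0 h, 3.51 and 5.75 CPM at 3 h and 6.04 and 9.29 CPM at 8 h, and did not pass at 8 h (log2 change -1.71, edgeR adjusted p = 0.0507). It passed with DESeq2, with the compared groups only and with a replicate block. With RLE scaling, no low-count filter or a read-note term it did not pass. DESeq2 called 2 of the 10 synthesis genes lower and 0 higher. None of the 7 inactivation genes passed with edgeR or with DESeq2, and 1 had an unadjusted p under 0.05; BAS1, a cytochrome P450 that inactivates brassinosteroids, was at 34.8 and 42.3 CPM at 0 h and 64 and 71.6 CPM at 8 h (edgeR adjusted p = 0.109).

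Of 13 receptors and kinases, 1 fell. BRL3 (AT3G13380), a BRI1-like receptor, went from 9.08 and 11 CPM to 3.57 and 1.95 CPM (log2 change -1.86, edgeR adjusted p = 0.00457), and lost its call without 0 h replicate 2 (edgeR adjusted p = 0.0706) or 8 h replicate 2 (edgeR adjusted p = 0.191). BRI1 itself was at 29.6 and 36.1 CPM at 0 h and 19.7 and 28.3 CPM at 8 h, and did not pass (log2 change -0.45, edgeR adjusted p = 0.613).

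Promoters are shown for 4 genes that passed. BZR1 and BES1 are known to bind the hexamers CGTGCG and CGTGTG (the brassinosteroid response element) and CACGTG (the G-box). The 4 genes were not chosen by size of change or by a fixed rule, and genes that moved more, such as MYB55, are not shown. Their matches therefore do not describe the genes that changed as a set. Each line gives the 250 bases before the annotated start, from the RefSeq genome TAIR10.1, on the strand of the gene and read 5′ to 3′; capitals mark matches to these hexamers on either strand, which can overlap.
BEH2 at chr4:17334356-17334605, minus strand: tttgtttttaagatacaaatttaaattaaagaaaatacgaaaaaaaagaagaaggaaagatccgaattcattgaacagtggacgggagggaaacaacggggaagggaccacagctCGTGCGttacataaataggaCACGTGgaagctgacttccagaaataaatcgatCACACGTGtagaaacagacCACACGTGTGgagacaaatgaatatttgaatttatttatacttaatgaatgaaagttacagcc
IDL1 at chr3:9338076-9338325, minus strand: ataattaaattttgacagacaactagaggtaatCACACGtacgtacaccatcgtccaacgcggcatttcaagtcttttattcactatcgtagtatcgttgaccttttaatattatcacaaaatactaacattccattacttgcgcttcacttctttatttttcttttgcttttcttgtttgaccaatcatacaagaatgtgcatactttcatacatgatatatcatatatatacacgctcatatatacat
IAA19 at chr3:5263751-5264000, plus strand: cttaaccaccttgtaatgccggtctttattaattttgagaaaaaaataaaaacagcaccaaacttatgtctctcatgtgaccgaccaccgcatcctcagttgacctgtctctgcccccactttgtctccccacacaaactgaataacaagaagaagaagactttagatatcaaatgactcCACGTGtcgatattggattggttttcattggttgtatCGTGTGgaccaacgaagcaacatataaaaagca
ASN1 at chr3:17441432-17441681, minus strand: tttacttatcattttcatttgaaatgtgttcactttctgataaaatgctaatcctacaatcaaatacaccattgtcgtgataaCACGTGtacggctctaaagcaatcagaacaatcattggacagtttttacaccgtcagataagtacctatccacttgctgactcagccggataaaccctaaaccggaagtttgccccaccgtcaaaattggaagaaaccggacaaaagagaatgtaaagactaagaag
BEH2 held 7 matches, several of them overlapping, within 135 bases of its start. IDL1 (AT3G25655), which fell, held 1 CGTGTG, IAA19 (AT3G15540), which rose, held 1 CGTGTG and 1 CACGTG, and ASN1 (AT3G47340), which rose, held 1 CACGTG.

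Over the window from 250 bases before to 50 after the start, CGTGCG or CGTGTG was found in 13.9% of the promoters of genes that fell, in 9.0% of those that rose and in 8.6% of all tested genes with a promoter (423, 379 and 20588 promoters). CGTGCG alone was in 4.3% of the promoters of genes that fell, 1.3% of those that rose and 2.2% of all. CACGTG was in 10.9%, 11.1% and 8.7%. These shares describe letters in a window and were not tested.

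Auxin synthesis genes rose together with genes of auxin response. Of the 9 synthesis genes tested 3 rose and none fell, with a median log2 change of 1.16, and all 3 belong to the YUCCA family of flavin monooxygenases, which make auxin. YUC3 (AT1G04610) was at 34.3 and 37.8 CPM at 0 h, 138 and 141 CPM at 3 h, and 110 and 121 CPM at 8 h (log2 change 1.68, SE 0.275, edgeR adjusted p = 0.000517). YUC8 (AT4G28720) went from 1.65 and 2.62 CPM to 7.99 and 10.9 CPM at 3 h and 7.84 and 15.7 CPM at 8 h (log2 change 2.47, SE 0.375, edgeR adjusted p = 0.000197). Both were already raised at 3 h. YUC9 rose from 3.27 and 2.34 CPM to 6.98 and 6.26 CPM (log2 change 1.24, edgeR adjusted p = 0.04) and lost its call without any 1 of the 4 libraries, at adjusted p from 0.0825 to 0.422.

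Of the 34 Aux/IAA and GH3 genes tested, 8 rose and none fell (DESeq2 called 10 higher and 1 lower), with a median log2 change of 0.43. Aux/IAA proteins repress auxin-responsive transcription and are themselves induced by auxin, and GH3 enzymes of this group conjugate auxin to amino acids. IAA19 stood at 4.71 and 5.57 CPM at 0 h, 29.9 and 24.4 CPM at 3 h and 15.6 and 19.3 CPM at 8 h (log2 change 1.76, SE 0.252, edgeR adjusted p = 9.47e-05); the 3 h libraries were the highest. IAA11 rose from 4.88 and 4.96 CPM to 10.8 and 12.1 CPM (log2 change 1.22, edgeR adjusted p = 0.00212; 0.0513 without 0 h replicate 2). IAA2 rose from 52.9 and 55.9 CPM to 107 and 111 CPM (edgeR adjusted p = 0.00709), a call lost without 0 h replicate 1 (edgeR adjusted p = 0.0672), 0 h replicate 2 (edgeR adjusted p = 0.0896) or 8 h replicate 2 (edgeR adjusted p = 0.0801).

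GH3.6 (AT5G54510) differed in timing from the others. It was at 12.9 and 12.6 CPM at 0 h and 14.4 and 15.3 CPM at 3 h, and at 36 and 60.1 CPM at 8 h (log2 change 1.92, edgeR adjusted p = 0.00141; 0.0643 without 8 h replicate 2). GH3.2 rose from 64.2 and 69.9 CPM to 157 and 178 CPM (edgeR adjusted p = 0.0163), and lost its call without 0 h replicate 1 (edgeR adjusted p = 0.111), 0 h replicate 2 (edgeR adjusted p = 0.156) or 8 h replicate 2 (edgeR adjusted p = 0.162). IAA9, IAA13 and IAA16 rose by log2 changes of 0.73, 0.72 and 0.66, and each lost its call in at least 3 of the 4 omissions.

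Among 53 genes annotated as SAUR proteins, small auxin-induced proteins linked to cell expansion, 8 rose and none fell, with a median log2 change of 0.73; this group was picked from the annotation after the values were seen. Its member AT1G29500 was at 0.275 and 0.246 CPM at 0 h, 2.57 and 3.23 CPM at 3 h and 1.64 and 2.83 CPM at 8 h (log2 change 3.08, SE 0.463, edgeR adjusted p = 0.000186). These levels are low, though both treated times exceeded both 0 h libraries.

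Of 16 auxin transport genes 2 rose and 1 fell. WAG2 (AT3G14370), a kinase that phosphorylates PIN auxin exporters, rose from 24.6 and 25.9 CPM to 74.8 and 83.5 CPM (log2 change 1.65, edgeR adjusted p = 0.00431), a call lost without 0 h replicate 1 (edgeR adjusted p = 0.0508), 0 h replicate 2 (edgeR adjusted p = 0.0808) or 8 h replicate 2 (edgeR adjusted p = 0.0547). Its relative WAG1 rose from 10.9 and 10.1 CPM to 29.1 and 28.8 CPM (edgeR adjusted p = 0.0396), with the call lost in each omission at adjusted p from 0.0771 to 0.331. PIN4, an auxin exporter, fell from 4.71 and 4.26 CPM to 1.97 and 1.83 CPM (log2 change -1.24, edgeR adjusted p = 0.00293; 0.0746 without 8 h replicate 2).

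**Figure D2:**
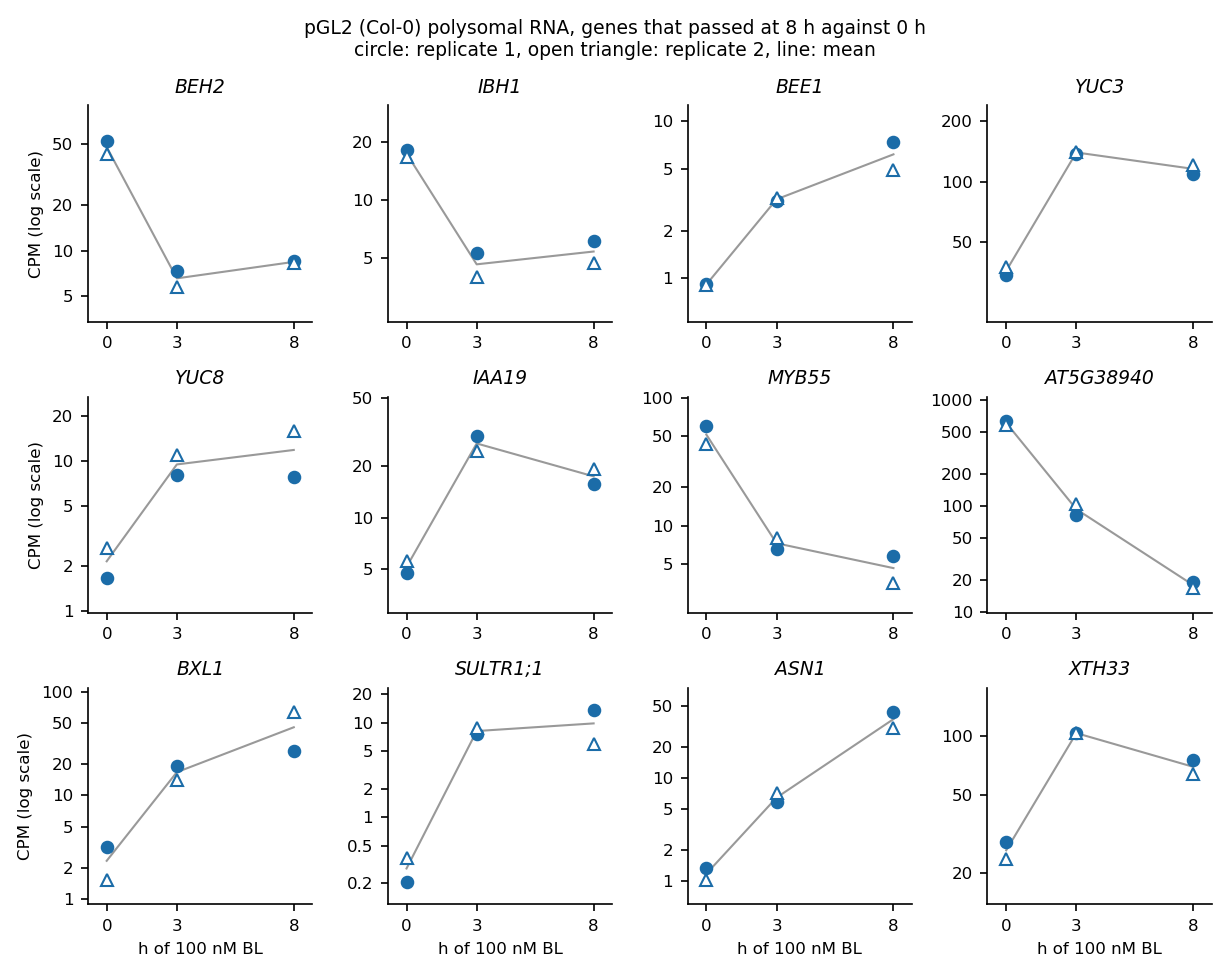
Level in CPM (log axis) of 12 genes in the pGL2 line at 0, 3 and 8 h of 100 nM BL; circles are replicate 1, open triangles replicate 2 and the line joins the means of 2 libraries. BEH2, IBH1 and MYB55 were low at both treated times, IAA19 and XTH33 were highest at 3 h, and BXL1 and ASN1 were highest at 8 h.

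Several of the largest falls were of regulators and were in place by 3 h. MYB55 (AT4G01680), an R2R3 MYB transcription factor, was at 59.9 and 43.2 CPM at 0 h, 6.58 and 8.02 CPM at 3 h and 5.79 and 3.55 CPM at 8 h (log2 change -3.46, SE 0.332, edgeR adjusted p = 1.7e-07). PUB29 (AT3G18710), a U-box ubiquitin ligase, went from 25.4 and 24.3 CPM to 2.67 and 2.52 CPM at 3 h and 3.61 and 2.99 CPM at 8 h (log2 change -2.91, edgeR adjusted p = 8.78e-06). ARR3 (AT1G59940), a type-A response regulator of cytokinin signalling, went from 43.1 and 36.2 CPM to 4.39 and 6.22 CPM at 8 h (log2 change -2.90, edgeR adjusted p = 1.39e-05). In none of these did a treated library reach a 0 h library.

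Signal peptides and further regulators fell too. IDL1, a peptide of the IDA-like family, fell from 35 and 36.2 CPM to 8.29 and 10.9 CPM (log2 change -1.89, edgeR adjusted p = 0.000277). RALF23 (AT3G16570), a peptide of the RALF family, fell from 24.3 and 18.5 CPM to 5.5 and 6.18 CPM (log2 change -1.87, edgeR adjusted p = 0.000221). SOB3 (AT1G76500), an AT-hook protein that restrains hypocotyl growth, fell from 17.1 and 14.8 CPM to 3.24 and 4.78 CPM (log2 change -1.99, edgeR adjusted p = 0.00234). All 6 of these genes passed without each of the 4 libraries.

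Some large falls continued between 3 h and 8 h. AT5G38940, on chromosome 5 at 15588757 to 15589666 in TAIR10 and annotated as a cupin-superfamily protein, was at 625 and 580 CPM at 0 h, 82.2 and 104 CPM at 3 h and 19.2 and 16.8 CPM at 8 h (log2 change -5.06, SE 0.501, edgeR adjusted p = 2.78e-07). AT3G49630, annotated as a 2-oxoglutarate-dependent oxygenase, was at 18.4 and 16.8 CPM at 0 h, 3.29 and 5.25 CPM at 3 h and 1.35 and 1.28 CPM at 8 h (log2 change -3.74, edgeR adjusted p = 5.68e-07). Both also passed against 3 h (edgeR adjusted p = 0.00681 and 0.0311), and both, like the locus AT4G19420 below, were named after their values were seen.

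Further genes among the largest falls were less stable. MYB56, also known as BRAVO, a MYB factor of the root stem cell niche, fell from 10.8 and 14.6 CPM to 3.98 and 1.28 CPM (log2 change -2.27), and its call was lost without 0 h replicate 2 (edgeR adjusted p = 0.0666) or 8 h replicate 2 (edgeR adjusted p = 0.18). NPY4, of a family linked to auxin-regulated organ formation, fell from 8.22 and 9.38 CPM to 1.31 and 2.47 CPM (log2 change -2.21; edgeR adjusted p = 0.0529 without 0 h replicate 2). HOS3-1, the P-type cyclin cycp3;1 and LTI78, a drought- and cold-induced gene, fell by log2 changes of -2.74, -2.46 and -2.30, each losing its call without 0 h replicate 2 or 8 h replicate 2. GRI and the lipoxygenase LOX1 fell by -2.25 and -2.22 and lost their calls in each of the 4 omissions.

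Among wall genes, several members of 1 enzyme family rose. Of 30 xyloglucan endotransglucosylase/hydrolases (XTH), enzymes that cut and rejoin wall xyloglucan, 5 rose and none fell, with a median log2 change of 0.36. XTH33 (AT1G10550) was at 28.6 and 23.5 CPM at 0 h, 103 in both 3 h libraries and 74.7 and 63.8 CPM at 8 h (log2 change 1.41, edgeR adjusted p = 0.00118; 0.0632 without 0 h replicate 2). XTH4 and XTH30 were the most abundant of the 5. XTH4 was at 239 and 208 CPM before and 484 and 418 CPM after treatment (edgeR adjusted p = 0.0247, lost in each omission at 0.0825 to 0.305), and XTH30 at 401 and 305 CPM before and 536 and 747 CPM after (edgeR adjusted p = 0.0168, lost without 0 h replicate 2 at 0.335 and without 8 h replicate 2 at 0.441). For XTH15 and XTH26 the rise rested on 8 h replicate 2, without which the adjusted p was 0.885 and 0.51; XTH15 was also lost without 0 h replicate 1 (edgeR adjusted p = 0.187) or replicate 2 (edgeR adjusted p = 0.0851), and XTH26 at 0.248 and 0.266.

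BXL1 (AT5G49360), a wall glycosidase that acts on xylan and arabinan side chains, had a larger change. It was at 3.16 and 1.52 CPM at 0 h, 19.4 and 14.1 CPM at 3 h and 26.8 and 64.3 CPM at 8 h, the 8 h replicates differing more than 2-fold (log2 change 4.27, SE 0.586, edgeR adjusted p = 6.73e-05). AT4G19420, on chromosome 4 at 10587166 to 10590588 in TAIR10 and annotated as a pectin acetylesterase, was at 8.63 and 5.98 CPM at 0 h, 34.7 and 30.9 CPM at 3 h and 31.5 and 46 CPM at 8 h (log2 change 2.40, SE 0.225, edgeR adjusted p = 1.7e-07). FLA10, a fasciclin-like arabinogalactan protein, fell from 12.4 and 13.8 CPM to 5.26 and 5.66 CPM (edgeR adjusted p = 0.00095). These 3 genes passed without each of the 4 libraries.

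Of 24 expansins tested, which loosen walls, none rose and 1 fell with edgeR, while DESeq2 called 2 higher and none lower. EXPA12 fell from 4.75 and 6.88 CPM to 1.72 and 1.4 CPM (edgeR adjusted p = 0.0494, lost in each omission). EXPA1 was at 30.9 and 32.9 CPM at 0 h and 80.2 and 85.4 CPM at 8 h and did not pass (log2 change 1.38, edgeR adjusted p = 0.182). None of the 10 cellulose synthesis genes of the primary wall passed with either tool, and none had an unadjusted p under 0.05.

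Genes of other growth hormones changed singly. Of 12 ethylene synthesis genes 1 rose and 2 fell, and the 2 strongest were ACC synthases, which make the ethylene precursor, moving in opposite directions. ACS11 (AT4G08040) was at 3.03 and 3.48 CPM at 0 h and at 0.0821 and 0.12 CPM at 8 h (edgeR adjusted p = 0.000572). ACS9 (AT3G49700) was at 0.0688 and 0.082 CPM at 0 h, 4.08 and 3.31 CPM at 3 h and 2.18 and 1.08 CPM at 8 h (edgeR adjusted p = 0.000643). Both passed without each of the 4 libraries, and neither exceeded 5 CPM in any pGL2 library. None of the 12 ethylene signalling genes passed with edgeR or DESeq2, and 1 had an unadjusted p under 0.05.

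Of 19 gibberellin genes 1 rose and 1 fell. GA2OX8, an enzyme that inactivates gibberellin precursors, went from 0.172 and 0.123 CPM to 2.05 and 1.95 CPM (edgeR adjusted p = 0.000563). GAI, a DELLA repressor of gibberellin response, fell from 17 and 16.6 CPM to 8.46 and 7.73 CPM (log2 change -1.05, edgeR adjusted p = 0.00496), lost without 0 h replicate 2 (edgeR adjusted p = 0.0555) or 8 h replicate 2 (edgeR adjusted p = 0.116). Of 16 cytokinin genes 2 fell, ARR3 above and CKX4, a cytokinin oxidase, from 32.5 and 38.2 CPM to 12.4 and 6.5 CPM (edgeR adjusted p = 0.0461, lost in each omission). Of 10 class II HD-ZIP factors, HAT1 fell from 92.8 and 83.7 CPM to 44 and 31.7 CPM (edgeR adjusted p = 0.00636; 0.222 without 8 h replicate 2) and HAT9 rose from 4.88 and 5.25 CPM to 11.9 and 17.5 CPM (edgeR adjusted p = 0.0336), lost without 0 h replicate 1 (edgeR adjusted p = 0.165), 0 h replicate 2 (edgeR adjusted p = 0.261) or 8 h replicate 2 (edgeR adjusted p = 0.42).

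**Figure D3:**
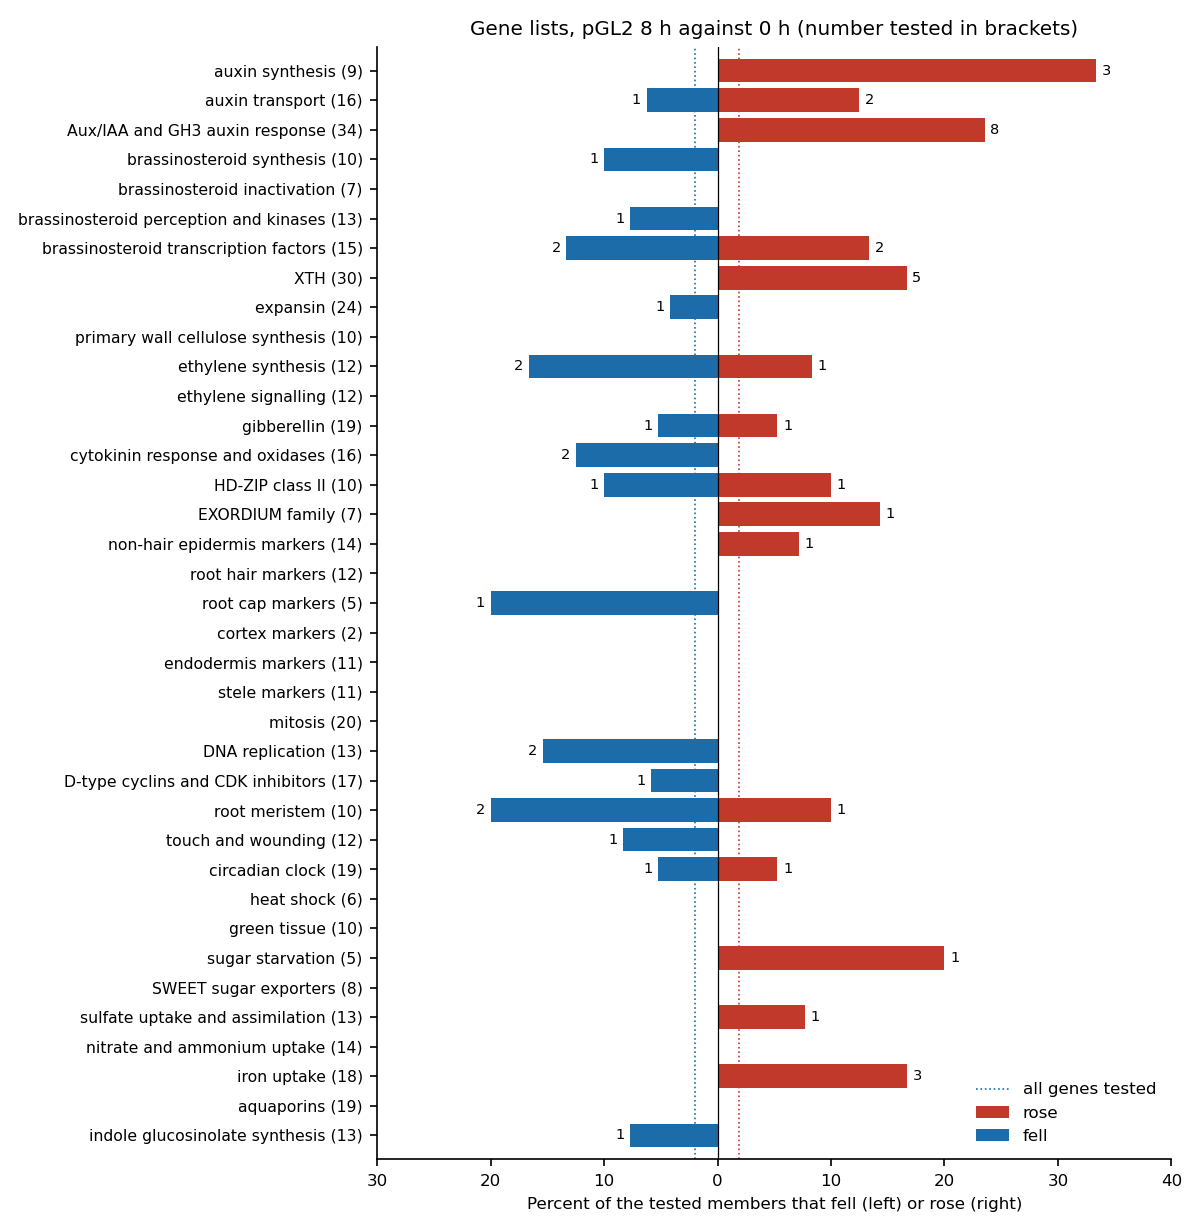
Percent of the tested members of each gene list that rose (right) or fell (left) at 8 h against 0 h in the pGL2 line, by edgeR at an adjusted p under 0.05. Dashed lines mark all genes tested, 1.84% higher and 2.03% lower; in auxin synthesis 33.33% rose and in the Aux/IAA and GH3 list 23.53%.

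Late genes were defined as those that passed at 8 h both against 0 h and against 3 h in the same direction, and both comparisons use the same 8 h libraries. There were 53 that rose (0.252% of genes tested) and 19 that fell (0.0905%). Late here does not mean unchanged at 3 h. Of the 53, 40 had a 3 h log2 change below 0, and of the 19, 9 had one above 0. The 3 h log2 changes ran from -2.63 to 3.37 in the late rises and from -2.7 to 1.06 in the late falls. AT5G38940 and AT3G49630 above, already lower at 3 h, also meet this definition. Without 8 h replicate 2 the counts were 21 and 1, without 8 h replicate 1 they were 182 and 113, without 3 h replicate 1 they were 10 and 9, without 3 h replicate 2 they were 4 and 1, without 0 h replicate 1 they were 22 and 15, and without 0 h replicate 2 they were 11 and 9. DESeq2 gave 134 and 36.

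Genes of metal uptake and binding were among the late rises. Of 18 iron uptake genes 3 rose and none fell, and 2 of the 3 were late. IRT1 (AT4G19690), the iron transporter of root epidermal cells, was at 194 and 258 CPM at 0 h, 59.5 and 66.1 CPM at 3 h and 825 and 1560 CPM at 8 h (log2 change 2.40, SE 0.632, edgeR adjusted p = 0.0296 against 0 h and 0.00142 against 3 h). FRO2 (AT1G01580), the ferric-chelate reductase that works with IRT1, was at 46.7 and 143 CPM at 0 h, 14.5 and 16.1 CPM at 3 h, a fall that passed (edgeR adjusted p = 0.000899), and 203 and 320 CPM at 8 h (edgeR adjusted p = 0.0439 against 0 h and 1.31e-05 against 3 h). For both genes the 3 h libraries were the lowest and the 8 h libraries the highest.

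The calls against 0 h depended on single libraries. IRT1 lost its call against 0 h without 0 h replicate 1 (edgeR adjusted p = 0.181), 0 h replicate 2 (edgeR adjusted p = 0.223) or 8 h replicate 2 (edgeR adjusted p = 0.387), and FRO2 without 0 h replicate 1 (edgeR adjusted p = 0.369) or 8 h replicate 2 (edgeR adjusted p = 0.521). The third iron gene, BHLH101, a regulator of iron uptake, was at 0.722 and 1.43 CPM at 0 h and 1.48 and 7.02 CPM at 8 h, so its rise rested on 8 h replicate 2 (edgeR adjusted p = 0.0445; 0.951 without that library, 0.285 and 0.161 without either 0 h library).

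Genes with the same time course included IREG2, a transporter that moves metals into the vacuole, at 6.98 and 8.93 CPM at 0 h, 4.41 and 5.5 CPM at 3 h and 19.1 and 33.1 CPM at 8 h (edgeR adjusted p = 0.00583 against 0 h), lost without 0 h replicate 1 (edgeR adjusted p = 0.0827), 0 h replicate 2 (edgeR adjusted p = 0.0644) or 8 h replicate 2 (edgeR adjusted p = 0.222). GRF11, a 14-3-3 protein, was at 3.13 and 4.96 CPM, then 1.7 and 1.61 CPM, then 9.07 and 18.7 CPM (edgeR adjusted p = 0.00304 against 0 h), lost without 0 h replicate 1 (edgeR adjusted p = 0.0738) or 8 h replicate 2 (edgeR adjusted p = 0.227). MT1C, a metallothionein, was at 380 and 426 CPM, then 271 and 320 CPM, then 657 and 1730 CPM (edgeR adjusted p = 0.00581 against 0 h), with the 8 h replicates far apart; without 8 h replicate 2 its log2 change fell from 1.57 to 0.71 (edgeR adjusted p = 0.571), and the call was lost too without 0 h replicate 1 (edgeR adjusted p = 0.0689) or replicate 2 (edgeR adjusted p = 0.0828).

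Other late rises included genes linked to the wall. EXO (EXORDIUM), a wall-localised protein that promotes brassinosteroid-dependent growth, was at 34.1 and 31 CPM at 0 h, 49.5 and 52 CPM at 3 h and 74.7 and 154 CPM at 8 h (log2 change 1.81, SE 0.281, edgeR adjusted p = 0.000244). It passed without each of the 4 libraries, with log2 changes from 1.20 to 2.25, and was the 1 of 7 tested EXORDIUM family genes that rose. MIOX2, a myo-inositol oxygenase that feeds the synthesis of wall sugars, was at 45.6 and 42.8 CPM, then 35.7 and 34.3 CPM, then 117 and 130 CPM (edgeR adjusted p = 0.00339; 0.0851 without 0 h replicate 2 and 0.0505 without 8 h replicate 2). Its relative MIOX4 was at 0.0344 and 0 CPM at 0 h, 0.145 and 0.29 CPM at 3 h and 2.55 and 2.87 CPM at 8 h (edgeR adjusted p = 0.000563) and passed in each omission. SIS, a salt-induced serine-rich protein, was at 2.82 and 1.15 CPM at 0 h and 6.04 and 24 CPM at 8 h (edgeR adjusted p = 0.00398), lost without 0 h replicate 2 (edgeR adjusted p = 0.155) or 8 h replicate 2 (edgeR adjusted p = 0.361).

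Some late rises came from a single library. LCR67, a small cysteine-rich protein of the defensin type, was at 0 and 0.041 CPM at 0 h, 0.0361 and 0 CPM at 3 h, 25.2 CPM in 8 h replicate 1 and 0.438 CPM in 8 h replicate 2 (edgeR adjusted p = 0.000563; 0.0682 without 8 h replicate 1). Genes known from seeds had the same pattern. GEA6 was at 9.16 and 0.12 CPM in the 8 h replicates, the dehydrin gene AT5G66400 at 7.88 and 0.199 CPM, and the late embryogenesis abundant gene AT3G15670 at 8.29 and 0.0399 CPM, while each was at most 0.165 CPM in all libraries of 0 h and 3 h. Without 8 h replicate 1 their adjusted p was 0.949, 0.554 and 0.567, so these calls describe that library.

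Among the late falls were genes known from stress responses and jasmonate synthesis. LEA14 (AT1G01470), a late embryogenesis abundant protein, was at 18 and 20.7 CPM at 0 h, 13.8 and 20.7 CPM at 3 h and 5.99 and 6.54 CPM at 8 h (log2 change -1.62, SE 0.219, edgeR adjusted p = 3.53e-05). AOS (AT5G42650), allene oxide synthase of jasmonate synthesis, was at 27.1 and 27.5 CPM, then 24 in both 3 h libraries, then 11.9 and 10.6 CPM (log2 change -1.28, SE 0.222, edgeR adjusted p = 0.000933). AZG2, a purine transporter, was at 52.3 and 86.5 CPM, then 39.1 and 62 CPM, then 29.1 and 14.1 CPM (log2 change -1.68, edgeR adjusted p = 0.000235). These 3 passed against 0 h without each of the 4 libraries, and AOS was the 1 gene of 12 tested in the touch and wounding list that passed.

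Other late falls were less stable. DOX1, an alpha-dioxygenase of oxylipin metabolism, was at 591 and 746 CPM, then 776 and 1120 CPM, then 173 and 267 CPM (edgeR adjusted p = 0.0176), lost without 0 h replicate 2 (edgeR adjusted p = 0.209), 8 h replicate 1 (edgeR adjusted p = 0.123) or 8 h replicate 2 (edgeR adjusted p = 0.078). GSTF7, a glutathione S-transferase, was at 560 and 407 CPM, then 981 and 1030 CPM, then 115 and 107 CPM (edgeR adjusted p = 0.0482, lost in each omission); it has a near-identical neighbour, so its reads may be shared. MT2A, a metallothionein, was at 17.3 and 19.7 CPM, then 22.6 and 29.8 CPM, then 6.82 and 4.07 CPM (edgeR adjusted p = 0.00197; 0.112 without 8 h replicate 2). In all 3 genes the 3 h libraries were above the 0 h libraries and the 8 h libraries below both.

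**Figure D4:**
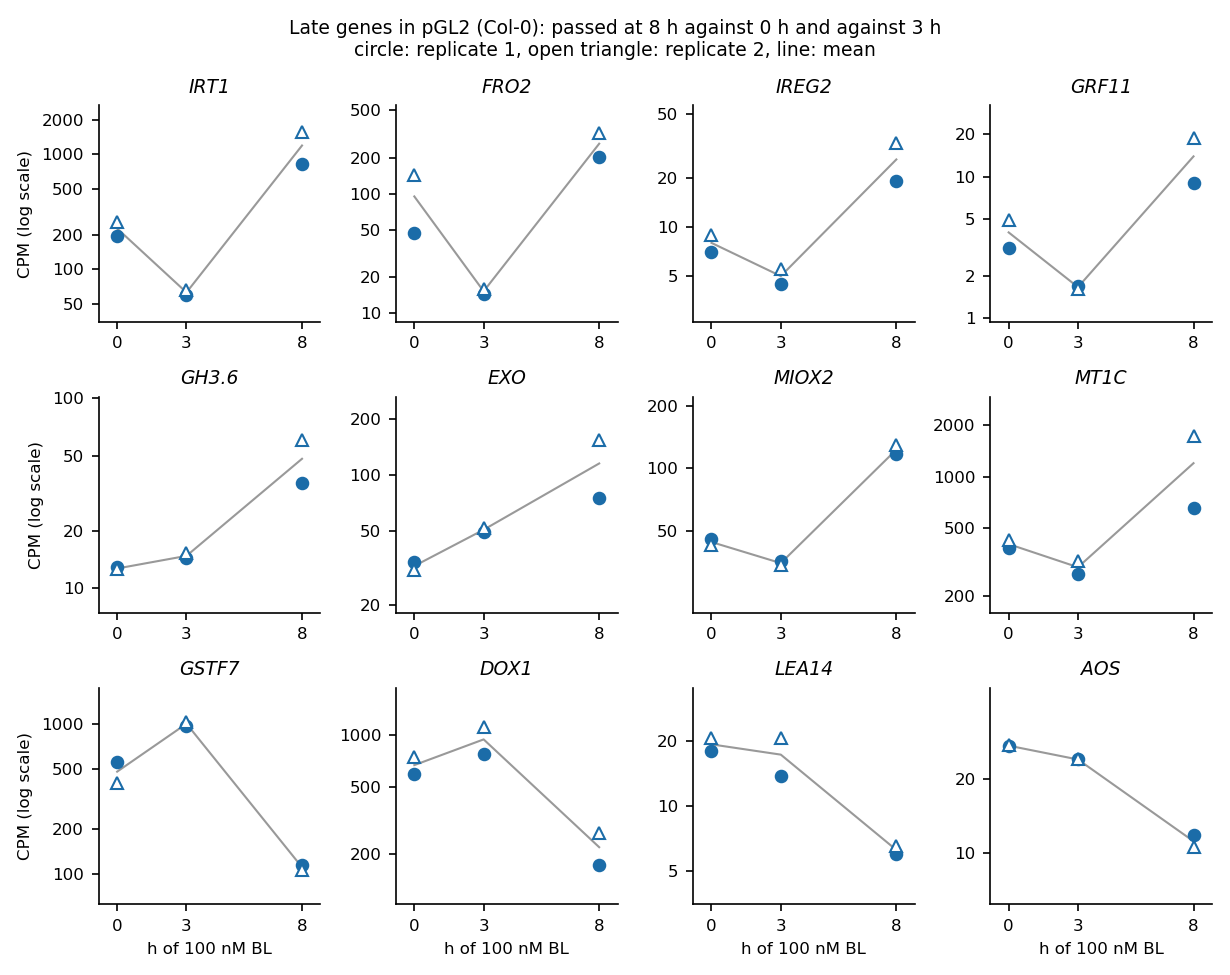
Level in CPM (log axis) of 12 late genes in the pGL2 line at 0, 3 and 8 h of BL; circles are replicate 1, open triangles replicate 2 and the line joins the means. IRT1, FRO2, IREG2 and GRF11 were lowest at 3 h and highest at 8 h, and GSTF7 and DOX1 were lowest at 8 h.

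A gene of carbon starvation and 1 of sulfate uptake were among the largest rises. ASN1, an asparagine synthetase known to be induced in the dark and by sugar starvation, was at 1.34 and 1.02 CPM at 0 h, 5.78 and 7.07 CPM at 3 h and 43.6 and 30.4 CPM at 8 h (log2 change 4.96, SE 0.881, edgeR adjusted p = 0.00164; 0.0666 without 0 h replicate 2). All 5 tested genes of the sugar starvation list were above 0, with a median log2 change of 1.90, and 1 passed with edgeR and 3 with DESeq2. GAT1_2.1, a glutamine amidotransferase-like gene, went from 2.51 and 1.07 CPM to 21.8 and 19.4 CPM (edgeR adjusted p = 0.00301; 0.126 without 0 h replicate 2), and the beta-amylase BMY3 from 16.5 and 13 CPM to 52.8 and 63.4 CPM (edgeR adjusted p = 0.00197; 0.0825 without 0 h replicate 2). SULTR1;1 (AT4G08620), a high-affinity sulfate transporter of the root surface, was at 0.206 and 0.369 CPM at 0 h, 7.63 and 8.69 CPM at 3 h and 13.7 and 5.98 CPM at 8 h (log2 change 5.10, SE 0.55, edgeR adjusted p = 1.19e-06) and passed in each omission. It was the 1 of 13 sulfate genes that passed, and the median log2 change of that list was -0.56. SULTR1;2, a far more abundant member, was at 1190 and 1070 CPM at 0 h and 1330 and 712 CPM at 8 h (log2 change -0.14, edgeR adjusted p = 0.929).

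Other large rises included RBL5, a rhomboid-like protein, from 1.24 and 0.861 CPM to 9.24 and 8.05 CPM (log2 change 3.03, edgeR adjusted p = 1.69e-05), and PLIM2b, an actin-bundling LIM protein, from 5.47 and 4.63 CPM to 15.9 and 18.7 CPM (edgeR adjusted p = 0.000245), both held in each omission. The copper chaperone CCH rose from 135 and 149 CPM to 374 and 799 CPM (edgeR adjusted p = 0.00162; 0.116 without 8 h replicate 2). The purine permease PUP19 rose from 3.51 and 2.09 CPM to 27.4 and 10.9 CPM (edgeR adjusted p = 0.0209), lost without 0 h replicate 1 (edgeR adjusted p = 0.0815), 0 h replicate 2 (edgeR adjusted p = 0.309) or 8 h replicate 1 (edgeR adjusted p = 0.142). IGMT2 and IGMT3, methyltransferases of indole glucosinolates that lie beside near-identical copies, rose from 23.3 and 17.6 CPM to 90 and 192 CPM and from 37.2 and 24.1 CPM to 102 and 153 CPM; IGMT2 lost its call without 0 h replicate 2 (edgeR adjusted p = 0.13) or 8 h replicate 2 (edgeR adjusted p = 0.115), and IGMT3 likewise (edgeR adjusted p = 0.116 and 0.0635). IGMT2 and IGMT3 are not in the list of 13 indole glucosinolate genes, of which DESeq2 called 2 lower and 0 higher. That list holds the nitrilase NIT1, which is not in the auxin synthesis list. NIT1 was the only member that passed with edgeR, falling from 426 and 436 CPM to 163 and 118 CPM (edgeR adjusted p = 0.00238). Its call was lost without 8 h replicate 2.

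Genes of cell identity and of the meristem changed in small numbers. Of 14 non-hair markers 1 rose, GL2 itself, whose promoter drives the tag: it was at 114 and 57.9 CPM at 0 h, 205 and 199 CPM at 3 h and 256 and 253 CPM at 8 h (log2 change 1.57, edgeR adjusted p = 0.00675), lost without 0 h replicate 2 (edgeR adjusted p = 0.261) or 8 h replicate 2 (edgeR adjusted p = 0.0556). Of 10 root meristem genes 1 rose and 2 fell. AIL6 and PLT2, AP2-type factors that maintain the meristem, fell from 4.06 and 4.02 CPM to 1.35 and 0.598 CPM (edgeR adjusted p = 0.003; 0.161 without 8 h replicate 2) and from 3.09 and 3.2 CPM to 1.11 and 0.957 CPM (edgeR adjusted p = 0.00661; 0.0671 without 0 h replicate 2 and 0.145 without 8 h replicate 2). UPB1, a helix-loop-helix factor of the transition from division to elongation, rose from 56.3 and 46.1 CPM to 87 and 199 CPM (edgeR adjusted p = 0.0399), lost without 0 h replicate 1 (edgeR adjusted p = 0.122), 0 h replicate 2 (edgeR adjusted p = 0.368) or 8 h replicate 2 (edgeR adjusted p = 0.756).

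Of 20 mitosis genes none passed with edgeR or DESeq2, 4 had an unadjusted p under 0.05 and 1 of the 20 was above 0, with a median log2 change of -0.34. Of 13 DNA replication genes 2 fell, RNR1, a ribonucleotide reductase subunit, from 14.3 and 15.4 CPM to 9.48 and 7.21 CPM (edgeR adjusted p = 0.0101), and MCM2, a helicase subunit, from 10.7 and 13.6 CPM to 9.11 and 5.54 CPM (edgeR adjusted p = 0.0448). RNR1 lost its call without 0 h replicate 2 (edgeR adjusted p = 0.136) or 8 h replicate 2 (edgeR adjusted p = 0.319), and MCM2 also without 0 h replicate 1, at adjusted p from 0.0585 to 0.74. KRP5, a cyclin-dependent kinase inhibitor, fell from 7.67 and 7.66 CPM to 3.61 and 3.19 CPM (edgeR adjusted p = 0.0029; 0.0868 without 8 h replicate 2). ELF5A-3 (AT1G69410), a translation factor of the eIF5A family, fell from 332 and 315 CPM to 121 and 125 CPM at 3 h and 113 and 90.6 CPM at 8 h (log2 change -1.67, edgeR adjusted p = 9.47e-05) and passed in each omission.

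In all, 13 of the 37 gene lists held no call, 8 had calls higher only, 9 lower only and 7 both. The lists without a call were brassinosteroid inactivation, cellulose synthesis, ethylene signalling, root hair, cortex, endodermis and stele markers, mitosis, heat shock, green tissue, SWEET sugar exporters, nitrate and ammonium uptake, and aquaporins. Over the 142 tested members of these lists, 21 had an unadjusted p under 0.05 in the edgeR fit, and DESeq2 called 5 higher and 0 lower. Of those, 4 were aquaporins. PIP2;1 was at 1190 and 1360 CPM at 0 h and 2040 and 2430 CPM at 8 h (edgeR adjusted p = 0.058).

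Most genes that changed in pGL2 moved the same way in the complemented line. Its libraries were not in the contrast that chose these genes, but they shared its filter, scaling and estimate of spread. In pGL2(pGL2BRI1), 92.2% of the genes that rose and 94.8% of those that fell had the same direction at 8 h, against 47.9% of all genes above 0 and 51.4% below. Without the replicate 2 libraries of that line these shares were 90.7% and 93.0%. Fewer passed there: 46 of the genes that rose (11.9% of them and 29.5% of the 156 that passed in that line) and 77 of those that fell (18.1% and 56.6% of 136), or 13 of 33 and 26 of 47 without its replicate 2 libraries. In pBRN2, 83.5% and 85.2% had the same direction, in pSCR 78.6% and 85.7%, in pSHR 83.2% and 83.6%, and in 35S 87.6% and 85.4%.

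The number of calls differed between the lines under the same fit. At 8 h, 115 genes (0.548%) were higher and 121 (0.576%) lower in pBRN2, 1.12% in all. In pSCR 2 (0.00953%) were higher and 12 (0.0572%) lower, 0.0667% in all, and in pSHR 1 (0.00476%) and 3 (0.0143%), 0.0191% in all. In 35S 35 (0.167%) were higher and 55 (0.262%) lower, 0.429% in all, and in pGL2(pGL2BRI1) 156 (0.743%) and 136 (0.648%), 1.39% in all. A count of calls in 1 line and not in another is no test of a difference, so the difference of the log2 changes was tested. Between pGL2 and pGL2(pGL2BRI1), 1 gene was higher and 1 lower (0.00476% each, 0.00953% in all). Between pGL2 and pBRN2 16 (0.0762%) were higher and 6 (0.0286%) lower, 0.105% in all, and between pGL2 and pSCR 6 were higher and 6 lower (0.0286% each, 0.0572% in all). When only the libraries of the compared groups were fitted, edgeR called 0 in each, with 653, 920 and 846 genes at an unadjusted p under 0.05.

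Both genes that separated pGL2 from pGL2(pGL2BRI1) changed little in the complemented line. AT4G19420, the pectin acetylesterase, was at 94.2 and 82.4 CPM at 0 h in pGL2(pGL2BRI1) and 101 and 117 CPM at 8 h, so its 0 h level there already exceeded all pGL2 libraries (difference of log2 changes 2.10, SE 0.302, edgeR adjusted p = 0.002). AT3G23170, an uncharacterised protein on chromosome 3 at 8267942 to 8268735, was at 2.88 and 2.27 CPM and then 2.54 and 2.52 CPM there, and at 3.23 and 2.87 CPM and then 0.205 and 0.399 CPM in pGL2 (difference -3.29, edgeR adjusted p = 0.00395). Without the replicate 2 libraries of pGL2(pGL2BRI1), AT4G19420 still differed (2.31, edgeR adjusted p = 0.025) and AT3G23170 did not pass (-3.14, edgeR adjusted p = 0.219).

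In the fit of all 48 libraries, the auxin synthesis genes YUC3 and YUC8 had a larger response in pGL2 than in pSCR. YUC8 also had a larger one than in pBRN2. Differences from pSHR and 35S were not tested. No difference in this paragraph passed when only the compared groups were fitted. The calls against pSCR were also lost without pGL2 0 h replicate 2 or 8 h replicate 2. Fewer genes were called higher against pSCR in every other omission too, except that of pGL2 8 h replicate 1. Against pBRN2, fewer were called higher in each omission except those of pGL2 8 h replicate 1 and pBRN2 8 h replicate 1. Most were lost there without pGL2 8 h replicate 2. YUC3 was at 11.8 and 20.5 CPM at 0 h in pSCR and 8.71 and 11.1 CPM at 8 h, and its log2 change in pGL2 exceeded that in pSCR by 2.40 (SE 0.39, edgeR adjusted p = 0.00947). YUC8 was at 1.93 and 3.17 CPM and then 1.58 and 2.78 CPM in pSCR, and at 22.9 and 30.5 CPM and then 22 and 30.8 CPM in pBRN2; the differences were 2.72 (edgeR adjusted p = 0.0458) and 2.48 (edgeR adjusted p = 0.0351). BXL1 was at 6.51 and 6.86 CPM and then 7.55 and 10.3 CPM in pSCR (difference 3.86, edgeR adjusted p = 0.0458). EXO was at 125 and 124 CPM at 0 h in pBRN2 and 75.1 and 69.3 CPM at 8 h, where the 8 h libraries were the lower, and the difference was 2.60 (SE 0.391, edgeR adjusted p = 0.00226).

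Other genes passed in several lines. The log2 change of MYB55 was -3.46 in pGL2, -4.73 in pGL2(pGL2BRI1), -1.76 in pBRN2, -2.35 in pSCR and -2.28 in 35S, passing in each of these lines. Without the replicate 2 libraries of pGL2(pGL2BRI1) its change there was -5.80, and the difference from pGL2 was 2.34 (SE 0.59), which did not pass (edgeR adjusted p = 0.325). AT5G38940 fell in all 6 lines compared, by log2 changes of -5.06 in pGL2, -4.49 in pGL2(pGL2BRI1), -3.03 in pBRN2, -3.35 in pSCR, -4.27 in 35S and -3.78 in pSHR. BEE1 rose in pGL2, pGL2(pGL2BRI1), pBRN2 and 35S by 2.75, 2.41, 2.27 and 2.51, and had a change of 0.64 that did not pass in pSCR (edgeR adjusted p = 0.739). Without those replicate 2 libraries the changes in pGL2(pGL2BRI1) were -4.70 for AT5G38940 and 2.44 for BEE1. For none of these 3 genes did a tested difference of response from pGL2(pGL2BRI1), pBRN2 or pSCR pass, which does not show that the lines respond alike.

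**Figure D5:**
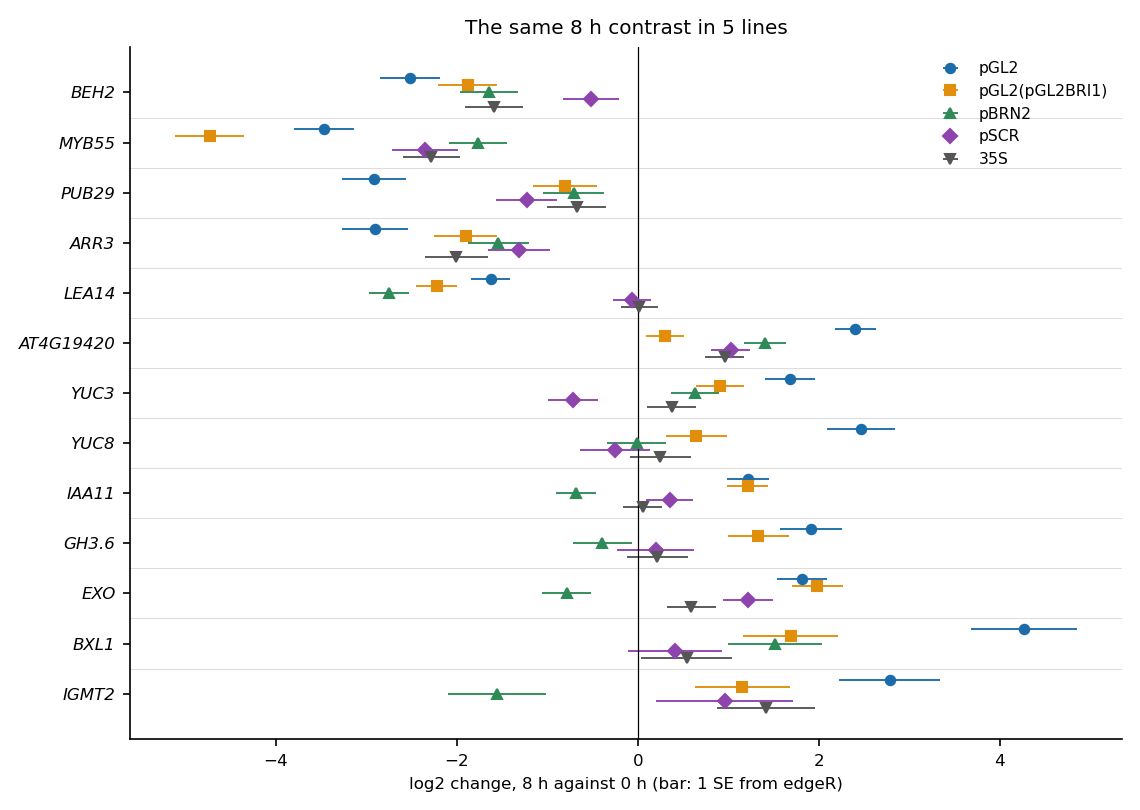
Log2 change at 8 h against 0 h for 13 genes in 5 lines; points are estimates of the edgeR fit and bars are 1 SE, with 2 libraries per line and time. The estimate for YUC8 was 2.47 in pGL2 and -0.25 in pSCR, and that for MYB55 was below 0 in every line shown.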

How the data were processed

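Polysomal RNA of the pGL2 line was read at 0, 3 and 8 h of BL, 2 libraries each. Per the labels' protocols, the TruSeq RNA v2 kit was used, which keeps no strand information, and the series design gives 50 bp single-end reads on an Illumina sequencer. Alignment to TAIR10 was by TopHat2 2.0.9 and counting by HTSeq 0.5.3p3, per the submitters' processing notes. The deposited table gives raw read counts as whole numbers in 33715 entries, of which 10689 matched a symbol in a RefSeq gene table; reads of overlapping and antisense genes cannot be told apart.

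Genes were tested on these counts with edgeR 4.0.16 (R 4.3.3), by quasi-likelihood: filterByExpr (20995 genes kept), TMM scaling, 1 mean per group over all 48 libraries, robust estimation, Benjamini-Hochberg adjustment, threshold 0.05. Levels are CPM from edgeR at the TMM library size, and the SE is the log2 change divided by the square root of F. The labels do not say whether the repetitions are separate cultures, so p-values measure the spread between such libraries, pooled over groups. Tested on simulated data for this comparison with 20872 genes, the fit found 50 percent of 2-fold rises and 98 percent of 4-fold rises. It found 44 percent of falls to 0.5 and 94 percent of falls to 0.25. The changed genes were drawn only from those with a mean above 8 CPM over the groups, so recovery at lower levels was not measured. Each gene had 1 spread for all groups, although the real 8 h replicates lay farther apart than those of 0 h. Alternatives were RLE scaling, DESeq2 1.42.0, no filter, the compared groups only, a replicate block, a read-note term and each library left out. Replicate numbers were not taken to pair the libraries (correlation of same-numbered deviations 0.37 for 0 and 3 h, -0.12 for 0 and 8 h).

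Members and gene lists were chosen with earlier results of these data known. Named genes were the 12 largest rises and 12 largest falls that had a symbol, no overlap between groups and 8 CPM or more in the higher one, 6 late genes and 3 genes per response difference each way, and list members. IDL1, RALF23, SOB3, ELF5A-3, FLA10, PLIM2b, BMY3, IREG2, MT1C, MIOX2, MIOX4, CCH, IGMT3, GEA6 and the genes given by locus code were named after their values were seen. Promoters were read from TAIR10.1 by its own annotation; gene positions are those of the deposited table.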

Additional observations from a re-analysis of the deposited data

Results flagged for a closer look

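The 8 h change differed between pGL2 and another line, by a test of the difference itself in the edgeR fit, for the genes below; each value is the log2 change in pGL2 minus that in the other line. Against pGL2(pGL2BRI1) these were AT3G23170 (-3.29) and AT4G19420 (2.10). Against pBRN2, the genes named in the report were IAA11 (1.90), GH3.6 (2.31), YUC8 (2.48), EXO (2.60) and IGMT2 (4.34), with AT5G12050, annotated as a rho GTPase-activating protein (2.58), and AT5G54490, the pinoid-binding protein 1 (2.74). IAA11 had a log2 change of 1.22 in pGL2 and -0.68 in pBRN2, and GH3.6 had 1.92 and -0.39. AT5G12050 was at 1.31 and 1.6 CPM at 0 h and 5.5 and 7.73 CPM at 8 h in pGL2, and its log2 change was 2.19 there and -0.39 in pBRN2. AT5G54490 was at 7.98 and 6.11 CPM at 0 h and 15.6 and 33.5 CPM at 8 h in pGL2. Its call at 8 h against 0 h was lost without 0 h replicate 2 or 8 h replicate 2.

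Against pSCR the genes were AT3G23170 (-3.07), LEA14 (-1.56), YUC3 (2.40), AT5G12050 (2.67), YUC8 (2.72) and BXL1 (3.86). LEA14 had a log2 change of -1.62 in pGL2 and -0.06 in pSCR, while in pGL2(pGL2BRI1) and pBRN2 it fell by 2.22 and 2.75 on the log2 scale (-2.41 in pGL2(pGL2BRI1) without its replicate 2 libraries). With only the compared groups fitted, edgeR called 0 genes in each of the 3 comparisons, with 653, 920 and 846 genes at an unadjusted p under 0.05.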

How the results depend on the processing

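No named gene with a call had a log2 change of the other sign under an alternative run. The balance of calls turned: falls outnumbered rises at 8 h in the edgeR fit, and rises outnumbered falls with RLE scaling (460 and 340), DESeq2 (703 and 513), the compared groups only (352 and 281), no filter (326 and 325) and without 8 h replicate 2 (84 and 47). With the compared groups only, 223 of the 387 genes that rose and 182 of the 426 that fell were called again. For expansins edgeR called 1 lower, and DESeq2 2 higher and none lower. At 8 h against 0 h the replicate block gave 695 higher and 885 lower; leaving out 1 library gave 46 to 520 higher and 47 to 540 lower. The replicate block gave 131 late rises and 60 late falls and DESeq2 134 and 36, and leaving out 1 library gave 4 to 182 and 1 to 113. For the response differences, DESeq2 gave 7 higher and 4 lower against pGL2(pGL2BRI1), 37 and 23 against pBRN2 and 23 and 17 against pSCR; the compared groups alone gave 0 in each direction of each, and the block gave 3 lower against pGL2(pGL2BRI1) and 45 higher and 38 lower against pBRN2. Leaving out 1 library gave 0 to 10 higher and 1 to 6 lower against pGL2(pGL2BRI1), 1 to 64 and 0 to 125 against pBRN2, and 0 to 25 and 0 to 18 against pSCR; leaving out both replicate 2 libraries of pGL2(pGL2BRI1), chosen after seeing the data, gave 1 higher and 0 lower (1117 genes at an unadjusted p under 0.05 in edgeR). Same-numbered libraries deviated together for 0 and 3 h (r = 0.37) but not for 0 and 8 h (-0.12) or 3 and 8 h (-0.13), so the numbers were not taken to pair the libraries. The crossed pairing of 0 h and 8 h is the same as the read-note term and gave 398 higher and 474 lower. Of 100 called genes named in the text or by the naming rule, 31 kept the call without each of the 4 libraries; 1 lost it with DESeq2, 0 with the block, 7 with RLE scaling, 4 with the read-note term, 14 with no filter and 21 with the compared groups alone. The causes of these shifts were not tested. With 2 libraries per group, 50 percent of simulated 2-fold rises were found, among genes with a mean above 8 CPM.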

Other observations

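Further groups were taken from gene annotation after the values were seen. Of 173 genes with the nucleolus in their location note, 12 fell and none rose with edgeR, where 2.03% of all genes fell, and DESeq2 called 15 lower and 3 higher; the median log2 change was -0.32 against -0.03 for all genes. PUM23, a pumilio protein of ribosomal RNA processing, was at 17.4 and 23.2 CPM at 0 h, 15.9 and 19.1 CPM at 3 h and 12.4 and 8.69 CPM at 8 h (edgeR adjusted p = 0.00241), a call lost without 0 h replicate 2 (edgeR adjusted p = 0.13) or 8 h replicate 2 (edgeR adjusted p = 0.155). Of 50 translation initiation factors 4 fell and none rose, with a median of -0.27; EIF3B-2, a subunit of initiation factor eIF3, was at 20.5 and 28.2 CPM at 0 h and 14.6 and 9.53 CPM at 8 h (edgeR adjusted p = 0.0065), lost without 0 h replicate 2 (edgeR adjusted p = 0.221) or 8 h replicate 2 (edgeR adjusted p = 0.295). Of 320 ribosomal protein genes 6 fell and none rose, with a median of -0.25; this share of calls is near that of all genes. Many members of these groups have near-identical copies, between which reads may be shared.

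Of 19 circadian clock genes 1 rose and 1 fell. GI was at 25.6 and 28.2 CPM at 0 h, 28.1 and 30.2 CPM at 3 h and 18.6 and 11.2 CPM at 8 h (edgeR adjusted p = 0.0297), lost without 0 h replicate 1 (edgeR adjusted p = 0.0771), 0 h replicate 2 (edgeR adjusted p = 0.272) or 8 h replicate 2 (edgeR adjusted p = 0.627). BOA was at 5.67 and 5.41 CPM at 0 h and 7.72 and 18.6 CPM at 8 h (edgeR adjusted p = 0.0353), so its rise rested on 8 h replicate 2 (edgeR adjusted p = 0.866 without it; 0.139 and 0.304 without either 0 h library). Of 5 root cap markers FEZ fell, from 1.13 and 0.82 CPM to 0.246 and 0.0797 CPM (edgeR adjusted p = 0.0344), lost without 0 h replicate 1 (edgeR adjusted p = 0.157), 0 h replicate 2 (edgeR adjusted p = 0.125) or 8 h replicate 2 (edgeR adjusted p = 0.498).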
